A study of Mus musculus with 24 samples.

Results

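Liver RNA of 8 alb-SREBP-1a mice was compared with liver RNA of 8 C57Bl6 mice, on 1 Affymetrix Mouse Gene 1.0 ST array per mouse. The arrays were chosen by their titles, and make up 16 of the 24 arrays of the series. Both groups were male and 24 weeks old. The C57Bl6 mice were wildtype. The alb-SREBP-1a mice have the same C57Bl6 background and carry the N-terminal domain of the human protein SREBP-1a with an HA tag, under the albumin promoter, which is active in hepatocytes. Per the methods the mice were litter mates on regular chow, killed in the early morning. How many founder lines the transgenic animals came from is not given in the sources used here, and no probe set is annotated here as reading the human transgene. The other 8 arrays are from alb-SREBP-1a∆P mice, in which the MAP kinase phosphorylation sites of the transgene are missing, and enter below only for differences between the transgenic lines.

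SREBP proteins are transcription factors held in the membrane of the endoplasmic reticulum by SCAP and the INSIG proteins. When sterols run low the precursor moves to the Golgi, where the site-1 and site-2 proteases release the N-terminal domain. That domain enters the nucleus, binds sterol regulatory elements, and switches on genes of cholesterol and fatty acid synthesis. A transgene that encodes the domain alone does not need this release.

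The deposited values are log2 signals normalised by RMA, so a difference of 1 is 2-fold. Differences are alb-SREBP-1a minus C57Bl6 with the standard error of limma, and "rose" and "fell" stand for an adjusted p under 0.05 over all 35556 probe sets. Each gene is given by its brightest probe set. Of 19938 genes, 1250 (6.27%) rose and 881 (4.42%) fell. All 8 alb-SREBP-1a arrays lay above every C57Bl6 array for 351 genes (1.76%) and below every C57Bl6 array for 232 (1.16%). The median difference over all genes was −0.0052 and the median absolute difference was 0.112. Only 187 of the genes that rose and 73 of those that fell changed by more than 1.5-fold. Calls were more frequent at high levels: in the brightest 5th of the genes 12.7% rose and 12.4% fell, and in the dimmest 5th 2.16% rose and 0.326% fell. The first principal component of the 16 arrays held 24.8% of the variance and ran from −32.9 to −20.8 in C57Bl6 and from 3.73 to 65.0 in alb-SREBP-1a. The highest score was that of alb-SREBP-1a array 3. The 17 measured hepatocyte markers had log2 levels of 10.7 to 14.3 in C57Bl6. Of these, 1 rose and 2 fell, with a median of −0.10.

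**Figure D1:**
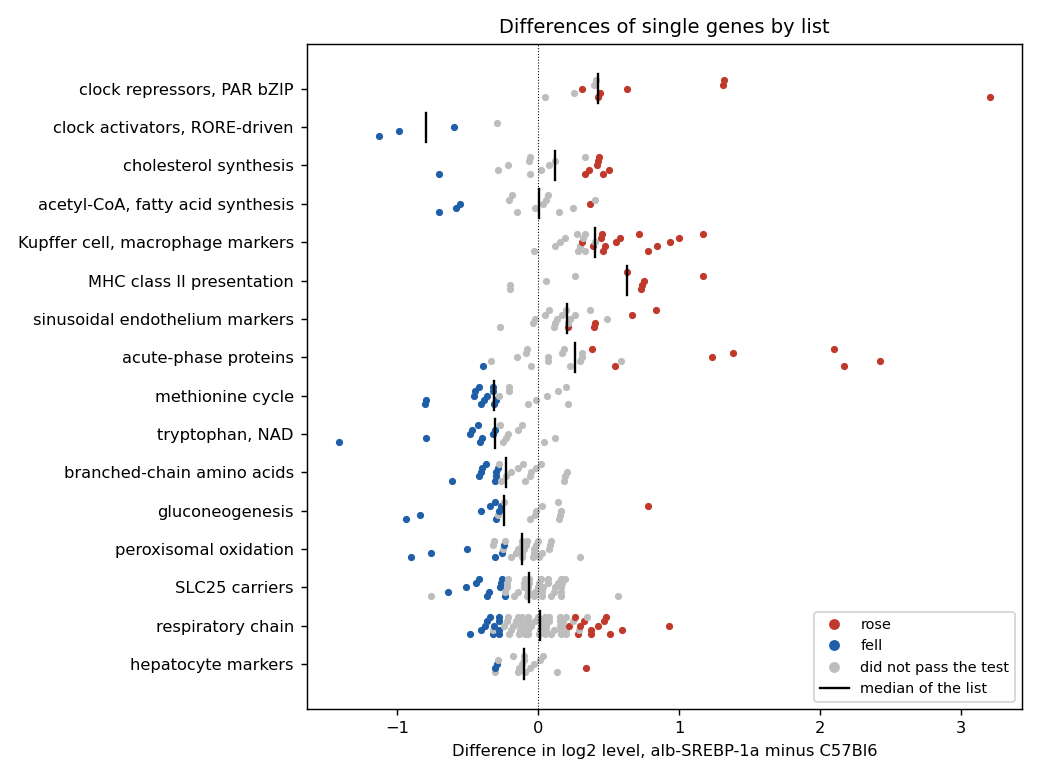
Difference in log2 level between alb-SREBP-1a and C57Bl6 liver (x axis) for the genes of 16 lists (y axis), 1 point per gene. Red points rose, blue points fell and grey points did not pass the test, and the black bar is the median of the list. Macrophage markers and clock repressors lie mostly to the right of 0, and genes of methionine and tryptophan metabolism to the left.

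The machinery that governs SREBP changed in part. Insig1, which retains the SREBP precursor and is itself an SREBP target, had a log2 level of 11.07 to 11.57 in C57Bl6 (median 11.42) and 11.59 to 12.13 in alb-SREBP-1a (median 11.88). The groups did not overlap, and Insig1 rose by 0.45 ± 0.09 (adjusted p = 0.0035). Its paralogue Insig2 ranged from 11.21 to 11.86 in C57Bl6 and from 10.30 to 11.49 in alb-SREBP-1a. Here 5 of 8 arrays lay below all C57Bl6 arrays, and Insig2 fell by 0.65 ± 0.17 (adjusted p = 0.0206). Without alb-SREBP-1a arrays 1 and 2, which had the lowest Insig2 levels, the difference was −0.44 (adjusted p = 0.0577). Srebf2, the SREBP that acts mainly on cholesterol genes, rose by 0.28 ± 0.08 (adjusted p = 0.0374), but the call was lost when any 1 of 9 arrays was left out. Srebf1, whose mouse probe sets were not tested for binding of the human transgene, differed by 0.28 ± 0.12 (adjusted p = 0.168), the escort protein Scap by 0.06 ± 0.08 and the site-1 protease Mbtps1 by −0.19 ± 0.08, and none of them passed the test. With arrays 1 and 2 left out Srebf1 did pass (0.40, adjusted p = 0.0281).

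Cholesterol synthesis showed 7 rises and 1 fall among 17 measured genes, with a median of 0.12. That share is above the 6.27% of all genes and the 12.7% of the brightest 5th, where the median level of the list (9.78) lies. The differences were small, however, and 3 genes of the list rose when alb-SREBP-1a arrays 1 and 2 were left out. Idi1, an isomerase early in the isoprenoid branch, rose by 0.50 ± 0.12, and its other probe set by 0.48. Hmgcs1, the HMG-CoA synthase, rose by 0.46 ± 0.12. C57Bl6 arrays read 10.58 to 11.02 for Hmgcs1 and alb-SREBP-1a arrays 10.74 to 11.65, so that 7 of 8 lay above the C57Bl6 range. Msmo1 (0.43 ± 0.11), the mevalonate decarboxylase Mvd (0.42 ± 0.10) and Nsdhl (0.36 ± 0.08) also rose. Cyp51, the lanosterol demethylase, differed by 0.33 ± 0.12 without passing the test. In the opposite direction, Pmvk, the phosphomevalonate kinase that stands between these enzymes in the pathway, fell by 0.70 ± 0.10 with all 8 arrays below the C57Bl6 range.

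The promoters of both groups were searched for the core of the sterol regulatory element, TCACNCCA, and for the E-box CACGTG, which basic helix-loop-helix factors such as SREBP and the clock activators bind. The 250 bases before each RefSeq start on GRCm38.p6 were read on both strands. Over all 32851 promoters 3.67% held the element and 6.02% held an E-box. Among the cholesterol synthesis genes 14 had a promoter in the table, and 2 of them held the element, Hmgcs1 and Msmo1, while 3 held an E-box, Dhcr7, Hsd17b7 and Sc5d. In the SREBP system Srebf2 held it, and Insig1 and Scap held an E-box. Among the other genes named in this text, the element was found in Pcyt1a, Sar1b, Ehhadh, Tat and Got1, which fell, and in Saa3 and Timd4, which rose. The stretches below are only those of the cholesterol synthesis and SREBP system genes that rose. They are on the strand of the gene, with the matched letters in capitals. They describe sequence only.
Hmgcs1, chr13:119690184-119690251, + strand: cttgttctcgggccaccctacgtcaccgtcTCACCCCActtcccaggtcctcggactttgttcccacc
Msmo1, chr8:64733718-64733785, - strand: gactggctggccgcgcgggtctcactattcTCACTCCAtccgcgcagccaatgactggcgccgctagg
Srebf2, chr15:82147077-82147144, + strand: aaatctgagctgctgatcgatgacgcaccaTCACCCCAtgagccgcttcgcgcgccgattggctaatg
Insig1, chr5:28071281-28071346, + strand: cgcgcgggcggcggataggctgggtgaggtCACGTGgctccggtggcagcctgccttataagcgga

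Of 14 genes of acetyl-CoA supply and fatty acid synthesis, 1 rose and 3 fell, with a median of 0.00. The 3 that fell encode enzymes that supply or carboxylate acetyl-CoA. Acss2, the cytosolic acetyl-CoA synthetase, fell by 0.70 ± 0.15, the ATP citrate lyase Acly by 0.58 ± 0.13 and the carboxylase Acacb by 0.55 ± 0.12. All 8 alb-SREBP-1a arrays lay below the C57Bl6 range for Acacb, and 6 of 8 for Acss2 and Acly. The fatty acid synthase Fasn ranged from 10.96 to 11.37 in C57Bl6 and from 10.80 to 12.01 in alb-SREBP-1a, where 6 arrays lay above and 1 below the C57Bl6 range, and its difference of 0.40 ± 0.14 did not pass the test (adjusted p = 0.0828). Fasn passed under 6 of 28 other settings, among them the fit without alb-SREBP-1a arrays 1 and 2 (0.53, adjusted p = 0.0091). Mid1ip1, which activates acetyl-CoA carboxylase, rose by 0.37 ± 0.10, though its dimmer probe set differed by −0.05. Among elongases and desaturases the trans-enoyl reductase Tecr rose by 0.49 ± 0.06 and the elongase Elovl3 fell by 0.93 ± 0.17. Tecr read 10.78 to 11.09 in C57Bl6 and 11.34 to 11.59 in alb-SREBP-1a, without overlap.

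Genes of lipid storage and export changed one by one. The median levels of the lists in this paragraph lie in the brightest 5th of all genes, where 12.7% rose and 12.4% fell. Their counts are not read as results about the lists. In 21 genes of lipid droplets 2 rose and 3 fell. Plin5, which coats droplets near mitochondria, fell by 0.48 ± 0.07 and the droplet enzyme Hsd17b13 by 0.57 ± 0.10, each with 8 of 8 arrays below the C57Bl6 range. The lipase Pnpla2 rose by 0.31 ± 0.08, a call that was lost without alb-SREBP-1a arrays 1 and 2 (0.26, adjusted p = 0.0590). In 22 genes of apolipoproteins and VLDL assembly 3 rose and 3 fell. Sar1b, a GTPase of the vesicles that carry lipoproteins, fell by 0.66 ± 0.11, Mttp, which loads lipid onto apolipoprotein B, by 0.31 ± 0.06 and Apoa5 by 0.31 ± 0.06, while Apoc4 rose by 0.41 ± 0.09. In 19 genes of phospholipid and choline metabolism 2 fell, both of the choline branch. Chka, the choline kinase, read 8.23 to 9.29 (median 8.70) in C57Bl6 and 6.62 to 8.14 (median 7.57) in alb-SREBP-1a, and Pcyt1a, the rate-limiting enzyme of the same branch, had a median of 8.18 in C57Bl6 and read 7.55 to 7.99 in alb-SREBP-1a. Neither gene overlapped between the groups, and the differences were −1.28 ± 0.21 (adjusted p = 0.000757) and −0.42 ± 0.09 (adjusted p = 0.00396). The choline transporter Slc44a1 fell by 0.46 ± 0.14 on its brightest probe set (adjusted p = 0.049, not passed when any 1 of 12 arrays was left out) and by 1.06 on the other.

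The core clock showed the single most significant gene of the comparison. The clock is a loop in which ARNTL and CLOCK activate genes through E-boxes, among them Nr1d1 and Nr1d2, whose products REV-ERBα and REV-ERBβ in turn repress Arntl, Cry1 and Nfil3 through the elements that ROR receptors activate. Nr1d1 had log2 levels of 6.84, 7.07 and 7.52 in C57Bl6 (lowest, median, highest) and 9.96, 10.37 and 10.72 in alb-SREBP-1a. The gap between the groups was wider than the spread within either, and the rise of 3.20 ± 0.12 is 9.20-fold (adjusted p = 6.5e-11). Nr1d2 read 7.03 to 7.73 in C57Bl6 and 8.29 to 9.27 in alb-SREBP-1a, a rise of 1.31 ± 0.14. In 11 clock repressors and PAR bZIP genes 7 rose and none fell, with a median of 0.43, and 4 of them did not overlap between the groups.

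The output genes of the loop spread more. Dbp, a PAR bZIP factor that activates D-box genes, read 6.27 to 6.88 in C57Bl6 and 6.82 to 8.67 in alb-SREBP-1a, so that 7 of 8 arrays lay above the C57Bl6 range (1.32 ± 0.22). Hlf, of the same family, rose by 0.31 ± 0.06, with all 8 arrays above. Bhlhe41 (DEC2), which competes for E-boxes, rose by 0.63 ± 0.12 with 8 of 8 arrays above. Per3 rose by 0.43 ± 0.12, a call lost when any 1 of 4 arrays was left out and without alb-SREBP-1a arrays 1 and 2 (0.33, adjusted p = 0.0889).

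Of 4 clock activators and genes driven by ROR elements 3 fell. Cry1 read 6.87, 7.22 and 7.71 in C57Bl6 (lowest, median, highest) and at most 6.36 in alb-SREBP-1a, a fall of 1.13 ± 0.13 (adjusted p = 4.54e-05). Arntl, which encodes BMAL1, read 7.55 to 8.21 and 6.18 to 7.32 and fell by 0.99 ± 0.16 (adjusted p = 0.000602). Nfil3, a repressor at D-boxes, fell by 0.60 ± 0.08 (adjusted p = 0.000184). For all of these the 8 transgenic arrays lay below every C57Bl6 array. Clock itself differed by −0.29 ± 0.10 and did not pass the test (adjusted p = 0.0579), but passed under 11 of 28 other settings. In the remaining 7 clock genes 3 fell, among them Rora, an activator of Arntl, by 0.46 ± 0.10 and the deubiquitinase Usp2 by 0.48 ± 0.13, a call lost when either of 2 arrays was left out. All mice were killed at the same time of day, so a difference in level and a shift of phase cannot be told apart.

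**Figure D2:**
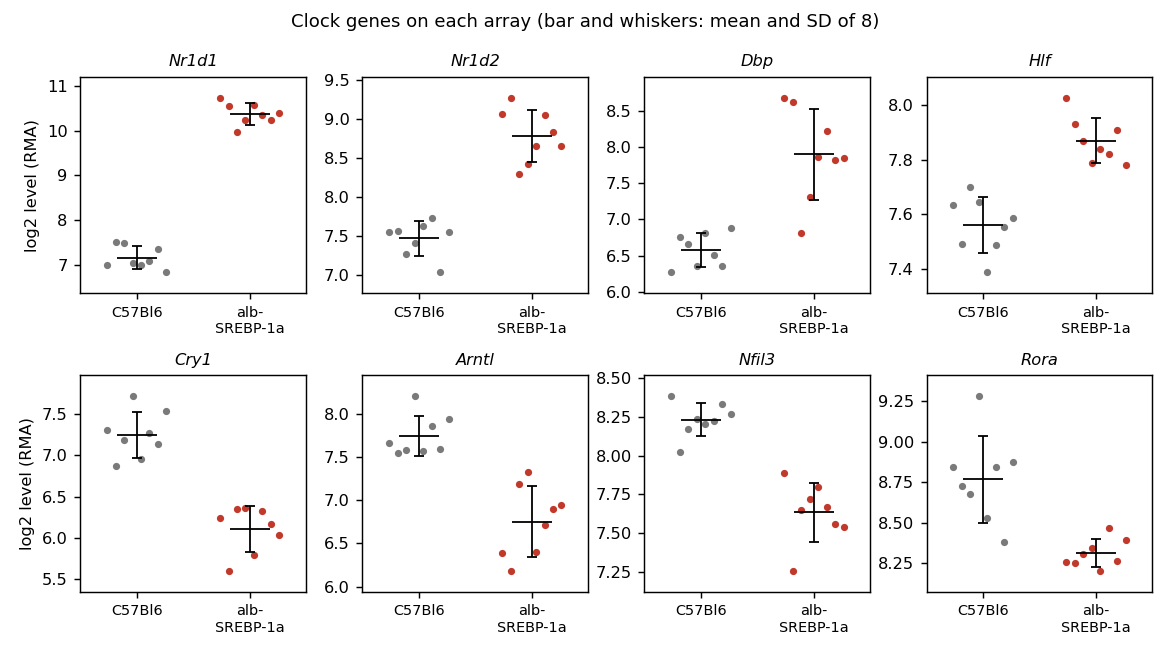
Log2 level (y axis) of 8 clock genes on each of 8 C57Bl6 (grey) and 8 alb-SREBP-1a (red) arrays, with the mean and SD of each group as bar and whiskers. Nr1d1, Nr1d2 and Hlf lie above and Cry1, Arntl and Nfil3 below all C57Bl6 arrays, while Dbp and Rora overlap.

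Promoters of the clock genes were searched for the E-box, for the core of the ROR element, TAGGTCA, and for the D-box TTATGTAA. Over all promoters 2.23% held the ROR core and 0.819% a D-box. Of the 9 repressor genes with a promoter listed, 4 held an E-box (Bhlhe41, Ciart, Per1 and Tef) and 1 a D-box (Per3), and none held the ROR core. Of the 4 activator and ROR-element genes Cry1 held an E-box and Nfil3 the ROR core, read on the opposite strand. In the windows of Nr1d1, Nr1d2, Dbp and Arntl none of these letters were found. The stretches show matches of 4 of the genes that passed the test.
Nfil3, chr13:52981040-52981081, - strand: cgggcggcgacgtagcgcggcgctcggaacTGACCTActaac
Cry1, chr10:85185079-85185144, - strand: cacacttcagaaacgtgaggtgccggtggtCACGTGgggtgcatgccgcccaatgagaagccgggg
Bhlhe41, chr6:145865538-145865603, - strand: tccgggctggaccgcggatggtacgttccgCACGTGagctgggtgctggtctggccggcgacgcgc
Per3, chr4:151044786-151044900, - strand: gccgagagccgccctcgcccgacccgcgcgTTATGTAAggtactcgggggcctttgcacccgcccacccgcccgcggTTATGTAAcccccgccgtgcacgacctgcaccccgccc

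Of 25 measured markers of Kupffer cells and macrophages 14 rose and none fell, with a median of 0.40, and for 8 of the 25 the groups did not overlap. The 3 chains of complement C1q, which macrophages secrete, rose by 1.17 ± 0.11 (C1qc), 0.93 ± 0.11 (C1qb) and 0.58 ± 0.08 (C1qa). C1qc read 7.04 to 7.83 in C57Bl6 and 8.41 to 8.86 in alb-SREBP-1a. The lysosomal proteins Laptm5 and Cd68 rose by 0.99 ± 0.10 and 0.78 ± 0.10, and the Fc receptor chain Fcer1g by 0.84 ± 0.08, all with 8 of 8 arrays above. Markers that define Kupffer cells were named for that reason: Vsig4 rose by 0.55 ± 0.12, the apoptotic cell receptor Timd4 by 0.48 ± 0.09 and the lectin Clec4f by 0.46 ± 0.10, whereas Adgre1 (F4/80) differed by 0.29 ± 0.16 (adjusted p = 0.275). In whole liver, more cells of a type and more RNA per cell cannot be told apart.

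Fewer markers of other leukocytes passed the test, and the difference between the lists was not tested. These lists were also dimmer. The median log2 level was 7.15 for the Kupffer list and 4.84 for monocyte-derived macrophages. It was 4.83 for neutrophils, 5.19 for dendritic cells, 5.28 for T cells and 5.25 for B and plasma cells. Of all genes at levels of 4.57 to 5.47, 1.28% rose, and at 6.45 to 7.72, 10.99% rose. The lower counts are therefore not read as a difference between cell types. Markers of monocyte-derived and lipid-associated macrophages had 1 rise in 15 genes with a median of 0.05, T cells 1 in 14 with a median of −0.02, and B and plasma cells 1 in 12 with a median of 0.09. Of the 14 neutrophil markers only Lcn2, which hepatocytes also make, rose. None of 12 NK cell markers, 10 dendritic cell markers, 11 bile duct markers, 9 adipocyte markers or 11 genes of the exocrine pancreas rose or fell. The medians of these 5 lists, in that order, were 0.23, 0.01, −0.04, 0.05 and −0.01. The NK cell markers were dim, with a median log2 level of 4.21, and 10 of the 12 had a positive difference. In the mean log2 level of a list, relative to C57Bl6, the C57Bl6 arrays ran from −0.21 to 0.18 for the Kupffer list and the alb-SREBP-1a arrays from 0.19 to 0.73. For the monocyte-derived list the corresponding ranges were −0.18 to 0.14 and −0.04 to 0.15.

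Among 20 markers of the sinusoidal endothelium 5 rose and none fell (median 0.20): Gpr182 by 0.84 ± 0.10, the secreted nuclease Dnase1l3 by 0.67 ± 0.12 and the cadherin Cdh5 by 0.39 ± 0.07 are examples. In 23 genes of stellate cells and fibrosis 4 rose (median 0.07), among them Tgfb1 by 0.61 ± 0.10. Of 9 genes of MHC class II presentation 5 rose, with a median of 0.63. Cd74, the invariant chain, read 7.33 to 7.61 in C57Bl6 and 8.17 to 9.01 in alb-SREBP-1a, a rise of 1.17 ± 0.11. H2-DMa (0.75 ± 0.12), H2-Eb1 (0.73 ± 0.12), H2-Ab1 (0.73 ± 0.15) and H2-Aa (0.63 ± 0.16) followed. Class I presentation had 3 rises in 13 genes.

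**Figure D3:**
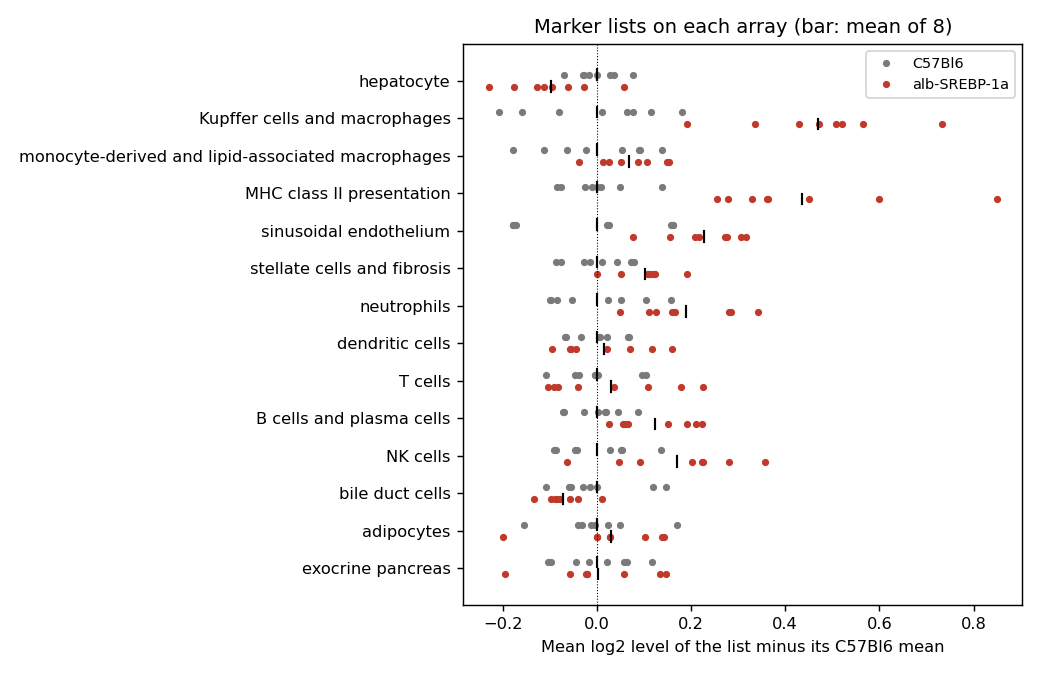
Mean log2 level of each marker list minus its C57Bl6 mean (x axis) on each array, C57Bl6 in grey and alb-SREBP-1a in red, with the mean of 8 arrays as a bar. The Kupffer list runs from −0.21 to 0.18 in C57Bl6 and from 0.19 to 0.73 in alb-SREBP-1a, and the hepatocyte list overlaps between the groups.

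Of 31 genes of inflammatory signalling 10 rose and none fell, with a median of 0.19. Cxcl13, a B cell attractant that macrophages also secrete, read 5.98 to 7.12 in C57Bl6 and 7.04 to 8.32 in alb-SREBP-1a and rose by 1.11 ± 0.19. Cxcl10 rose by 0.93 ± 0.23 and Il18 by 0.55 ± 0.11. Of 31 interferon-stimulated genes 7 rose and 1 fell, and 4 rose without alb-SREBP-1a arrays 1 and 2. The GTPase Irgm1 rose by 0.59 ± 0.09 and the antiviral radical SAM protein Rsad2 fell by 0.82 ± 0.16. Cd52, a surface glycoprotein of leukocytes, rose by 0.99 ± 0.09, and Sp140, a nuclear body protein of leukocytes, read 4.40 to 5.41 in C57Bl6 and 5.88 to 7.00 in alb-SREBP-1a, a rise of 1.61 ± 0.17.

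Acute-phase genes had some of the largest differences and the widest spread. Of 22 measured, 7 rose and 1 fell, with a median of 0.26. Lcn2, the siderophore-binding lipocalin 2, read 6.02, 6.50 and 8.31 in C57Bl6 and 7.91, 9.41 and 10.21 in alb-SREBP-1a, a rise of 2.42 ± 0.38 that left 1 transgenic array inside the C57Bl6 range. Saa1, a serum amyloid A, read 4.56, 5.81 and 6.62 in C57Bl6 and 5.45, 8.47 and 9.04 in alb-SREBP-1a (2.16 ± 0.53), and Saa2 rose by 2.09 ± 0.53. For Saa1 the alb-SREBP-1a arrays 3 and 4 read 5.57 and 5.45, inside the C57Bl6 range, whereas the other 6 read 8.16 or more. Saa3, a serum amyloid A that macrophages also make, read 5.94 to 6.51 and 6.75 to 8.04 without overlap and rose by 1.23 ± 0.15. Hamp, the iron hormone hepcidin, rose by 0.55 ± 0.10 and the pentraxin Crp fell by 0.39 ± 0.09. Orm2, chosen after its values were seen, rose by 1.38 ± 0.40, a call lost when any 1 of 10 arrays was left out.

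The genes below are examples in which arrays 1 and 2 and arrays 3 and 4 of alb-SREBP-1a stood at opposite ends. Saa1 was highest in arrays 1 and 2, at 9.04 and 8.95, and Lcn2 too, at 10.21 and 9.82 against 7.91 and 8.66 in arrays 3 and 4. Insig2 ran the other way, at 10.34 and 10.30 in arrays 1 and 2 and 11.39 and 11.49 in arrays 3 and 4. Cyp2b9, a cytochrome P450 with higher expression in female liver, read 4.39 to 5.32 in C57Bl6. It read 4.78 and 4.11 in arrays 1 and 2, and 6.10 to 7.37 in the other 6. Cyp2b9 rose by 1.28 ± 0.38, and the call was lost when any 1 of 12 arrays was left out. Without arrays 1 and 2 the difference was 1.84, but these were its 2 lowest arrays, so leaving them out could only raise it. Arrays 1 and 2 read high for Saa1 and Saa2, so leaving them out could only lower those differences. Without alb-SREBP-1a arrays 1 and 2 the calls of Saa1 (1.78, adjusted p = 0.0541) and Saa2 (1.76, adjusted p = 0.0638) were lost, and 4 acute-phase genes rose. Kupffer markers then rose in 14 of 25 genes, the same count as with all arrays. Arrays 3 and 4 were not left out together. Arrays 1 and 2 were not alike everywhere. The mean of the acetyl-CoA and fatty acid synthesis list, relative to C57Bl6, was −0.47 and −0.39 in arrays 1 and 5 and −0.07 in array 2. For glycogen metabolism these means were −0.28, −0.25 and 0.01. What sets the arrays apart was not tested.

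**Figure D4:**
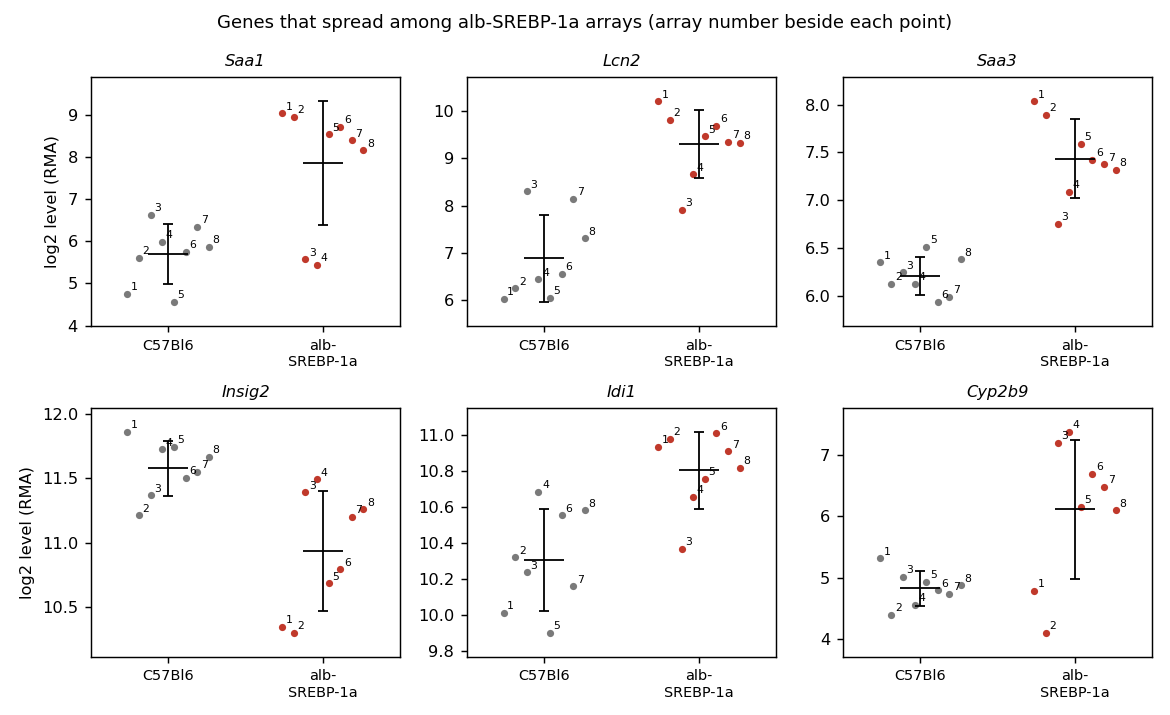
Log2 level (y axis) of 6 genes on each C57Bl6 (grey) and alb-SREBP-1a (red) array, with the array number beside each point and the mean and SD of each group as bar and whiskers. Arrays 1 and 2 of alb-SREBP-1a are highest in Saa1 and Lcn2 and lowest in Insig2 and Cyp2b9, and arrays 3 and 4 lie at the other end of these 4 genes.

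Of 21 genes of the methionine cycle and transsulfuration 12 fell and none rose, with a median of −0.31. Of all genes 4.42% fell, and of the brightest 5th, where the median level of this list (11.07) lies, 12.4% fell. Cth, which makes cysteine from cystathionine, read 12.09 to 12.72 in C57Bl6 and 11.30 to 11.81 in alb-SREBP-1a and fell by 0.80 ± 0.11. Nnmt, a methyltransferase that uses the product of the cycle, fell by 0.80 ± 0.15, Bhmt, which remethylates homocysteine with betaine, by 0.46 ± 0.08, and Mat1a, which makes S-adenosylmethionine, by 0.45 ± 0.07. Bhmt fell by 0.55 on its other bright probe set.

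In tryptophan breakdown and NAD synthesis 9 of 17 genes fell and none rose, with a median of −0.31. Acmsd, which diverts the kynurenine pathway away from NAD, fell by 1.41 ± 0.22, and read 8.25 or more in C57Bl6 and 7.17 to 7.98 in alb-SREBP-1a. Ido2 fell by 0.48 ± 0.08 and Kynu by 0.43 ± 0.09. In branched-chain amino acid breakdown 9 of 23 fell and none rose (median −0.23). Ivd, the isovaleryl-CoA dehydrogenase of leucine breakdown, read 10.39 to 10.72 and 9.74 to 10.12 without overlap, a fall of 0.62 ± 0.07 (adjusted p = 2.04e-05). In phenylalanine and tyrosine breakdown 3 of 7 fell, the aminotransferase Tat by 0.75 ± 0.10. Of 13 genes of the urea cycle and ammonia handling 5 fell and 1 rose, and the falls included Asl by 0.47 ± 0.09 and Cps1 by 0.29 ± 0.07. Plasma membrane amino acid transporters had 2 rises and 5 falls in 23 genes. Slc3a1, a chain of the cystine transporter, fell by 0.89 ± 0.20 and the exchanger Slc7a8 rose by 0.51 ± 0.07. Without alb-SREBP-1a arrays 1 and 2 the counts of genes that fell were 11 for methionine, 9 for tryptophan and 8 for branched-chain amino acids.

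Of 19 gluconeogenesis genes 8 fell and 1 rose, with a median of −0.24. The median levels of the lists in this paragraph lie in the brightest 5th of all genes, where 12.7% rose and 12.4% fell. G6pc, the catalytic subunit of glucose-6-phosphatase, read 12.61 to 13.07 in C57Bl6 and 11.39 to 12.51 in alb-SREBP-1a, a fall of 0.84 ± 0.14 (adjusted p = 0.000992). The aspartate aminotransferase Got1 fell by 0.94 ± 0.20 and Fbp1 by 0.34 ± 0.08. The 1 gene that rose was Crtc2, the CREB coactivator of the fasting response, by 0.78 ± 0.07, with 7.54 to 7.95 in C57Bl6 and 8.50 to 8.73 in alb-SREBP-1a. In glycogen metabolism, with 1 rise and 2 falls in 18 genes, the protein phosphatase targeting subunit Ppp1r3c fell by 1.23 ± 0.17 without overlap. Of 27 insulin signalling genes 6 rose and 1 fell: the translation inhibitor Eif4ebp2 rose by 0.92 ± 0.09 and the mTORC1 activator Rheb fell by 0.51 ± 0.11. Without alb-SREBP-1a arrays 1 and 2, 2 insulin signalling genes rose. The autophagy genes Atg13 and Map1lc3a, 2 of 4 risers in 27 genes, rose by 0.63 ± 0.08 and 0.65 ± 0.09.

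Of 16 bile acid synthesis genes 3 fell and none rose, each with 8 of 8 arrays below the C57Bl6 range: Slc27a5, the bile acid CoA ligase, by 0.52 ± 0.06, the acyltransferase Acnat1 by 0.91 ± 0.10, and the oxysterol hydroxylase Cyp39a1 by 0.78 ± 0.14. Of 31 peroxisomal oxidation enzymes 6 fell and none rose, with a median of −0.12, and 3 fell without alb-SREBP-1a arrays 1 and 2. The median levels of the lists in this paragraph lie in the brightest 5th of all genes, where 12.7% rose and 12.4% fell. Their counts are not read as results about the lists. Hacl1, which shortens branched fatty acids, read 11.52 to 11.83 in C57Bl6 and 10.65 to 11.06 in alb-SREBP-1a, a fall of 0.76 ± 0.08. The bifunctional enzyme Ehhadh fell by 0.51 ± 0.12. Among 34 cytochromes P450 of families 1 to 3, 5 fell, with Cyp2c70, which hydroxylates bile acids in mice, at −0.66 ± 0.11, and 1 rose. Of 18 male-biased liver genes 1 rose, Hsd3b5 by 0.72 ± 0.10, and 4 fell.

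In 46 SLC25 carriers 10 fell and none rose, with a median of −0.07. The peroxisomal carrier Slc25a17 fell by 0.64 ± 0.09, the oxoglutarate carrier Slc25a11 by 0.51 ± 0.07 and the aspartate-glutamate carrier Slc25a13 by 0.27 ± 0.07. The last call was lost when either of 2 arrays was left out. In 23 heat shock and mitochondrial chaperones, which include cytosolic ones, 7 fell and 1 rose. Of the mitochondrial members, Clpx, the unfoldase of the matrix protease, fell by 0.92 ± 0.11 and the chaperonin Hspd1 by 0.57 ± 0.08, with 0.92 on its other probe set. Sfxn1, a serine carrier, fell by 0.72 ± 0.08. Nuclear-encoded respiratory chain subunits moved both ways, 13 up and 11 down in 73 genes with a median of 0.01 (12 up and 13 down after quantile normalization, 10 up and 6 down without alb-SREBP-1a arrays 1 and 2): the ATP synthase subunit Atp5k rose by 0.92 ± 0.11 and its catalytic-core partner Atp5a1 fell by 0.41 ± 0.07. Genes with symbols beginning with Mrpl or Mrps, listed as mitochondrial ribosomal proteins, had 17 rises and 6 falls in 77 genes (median 0.11). They ran from Mrps36 at 0.50 ± 0.08 to Mrpl9 at −0.56 ± 0.08. The list was taken by symbol alone, so not every member need be a ribosomal protein. The median levels of this list, the respiratory chain and the chaperones lie in the brightest 5th, where 12.7% rose and 12.4% fell.

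Transcription factors also changed in both directions. Ppard, a nuclear receptor for fatty acids, had the smallest p of the genes that fell. It read 8.16, 8.34 and 8.51 in C57Bl6 and 7.13, 7.30 and 7.68 in alb-SREBP-1a, a fall of 1.00 ± 0.08 (adjusted p = 1.58e-06). Of 29 nuclear receptors and their coactivators 6 rose and 2 fell. The median levels of this list and of the liver-enriched factors lie in the brightest 5th, where 12.7% rose and 12.4% fell. Pparg rose by 0.64 ± 0.12, with 4 of 8 arrays above the C57Bl6 range, and Nr2f2 (COUP-TFII) by 0.61 ± 0.06 with 8 of 8. Ppara rose by 0.24 ± 0.08 (adjusted p = 0.0494), a call lost when any 1 of 12 arrays was left out. In liver-enriched factors, with 5 rises and 1 fall in 18 genes, the WNT effector Tcf7l2 rose by 0.59 ± 0.07, Foxa2 by 0.52 ± 0.09 and Cebpa by 0.43 ± 0.09, and Foxa3 fell by 0.58 ± 0.13. Hnf4a differed by −0.18 ± 0.07 and did not pass the test. Of 33 immediate early genes 8 rose and none fell (median 0.08): Phlda1, a pleckstrin homology protein, by 1.73 ± 0.16, the G-protein regulator Rgs16 by 1.47 ± 0.17, the mRNA decay factor Zfp36 by 0.90 ± 0.12 and Klf10 by 0.85 ± 0.22. Klf10 lay above the C57Bl6 range on 7 alb-SREBP-1a arrays and below it on array 4 (5.70 against 5.86 to 6.32), and its call was lost without arrays 1 and 2 (0.66, adjusted p = 0.0624). The arrestin-like Arrdc3 rose by 1.43 ± 0.12, with 8.73 to 9.45 in C57Bl6 and 10.22 to 10.62 in alb-SREBP-1a.

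The list of 17 genes that the study names for this comparison was chosen on these samples and is not independent evidence: 5 rose and 7 fell. Beside those already given, Apoa1 (−0.14 ± 0.08), Apoa4 (−0.03 ± 0.10), Gpd1 (−0.11 ± 0.10) and Atf7 did not pass the test. Atf7 differed by 0.19 ± 0.06 on its brightest probe set and rose by 1.08 on the dimmer one.

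Small RNA genes were measured by probe sets on their loci, which cannot tell the mature RNA from its precursor or host transcript. Of 300 miRNA genes 9 rose and 6 fell, beside 6.27% and 4.42% of all genes, with a median of 0.02. The median level of the list was 4.24, and in the dimmest 5th of all genes 2.16% rose and 0.326% fell. After quantile normalization 7 rose and 12 fell. For 2 of the 300, Mir107 and Mir15a, all 8 alb-SREBP-1a arrays lay above every C57Bl6 array, beside 1.76% of all genes. Seeds are shown in capitals (bases 2 to 8, RefSeq, GRCm38.p6). Those of miR-107-3p and miR-15a-5p are not identical, but the letters AGCAGCA begin miR-107-3p and form the seed of miR-15a-5p. Mir666 fell.
mmu-miR-107-3p, chr19:34820700-34820722, - strand: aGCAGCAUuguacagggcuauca
mmu-miR-15a-5p, chr14:61632075-61632096, - strand: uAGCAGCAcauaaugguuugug
mmu-miR-666-5p, chr12:109717103-109717124, + strand: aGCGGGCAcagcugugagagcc
Mir107 read 5.09 to 5.52 in C57Bl6 and 5.54 to 6.05 in alb-SREBP-1a and rose by 0.55 ± 0.08. Its locus, chr19:34820687-34820773, lies within Pank1, a pantothenate kinase gene named for this overlap, which differed by −0.21 ± 0.08 and did not pass the test. Mir15a read 6.67 to 7.66 and 7.73 to 8.15 and rose by 0.76 ± 0.14, within Dleu2, a long non-coding RNA gene on chromosome 14 (0.30 ± 0.15, not passed). Dleu2 was dim, at 1.59 to 2.27 in C57Bl6 and 1.78 to 2.79 in alb-SREBP-1a, so its missing call tells little about that transcript. Mir666 fell by 0.40 ± 0.08 and Mir187 by 0.50 ± 0.10. In 51 small nucleolar RNAs 4 rose and 5 fell: Snora69 read 6.97 to 7.92 and 5.74 to 6.46 and fell by 1.38 ± 0.15, and Snord57 rose by 1.06 ± 0.12.

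Several further genes were among those with the smallest p or the largest fold. Ubl5, a ubiquitin-like splicing factor, rose by 0.82 ± 0.07, the small redox-fold protein gene Sh3bgrl3 by 1.11 ± 0.10, Fam168a by 0.77 ± 0.07 and 1810058I24Rik by 0.98 ± 0.09, all with 8 of 8 arrays above. The glutathione transferase Gsto1 read 9.26 to 9.37 in C57Bl6 and 8.78 to 8.94 in alb-SREBP-1a, and fell by 0.46 ± 0.05. The gene 1300017J02Rik fell by 0.46 ± 0.06, Lonrf3 by 1.24 ± 0.20, and the phosphoethanolamine lyase Etnppl fell from a range of 9.44 to 11.19 in C57Bl6 to one of 8.62 to 9.66 in alb-SREBP-1a. For others the probe sets disagreed. Mtmr9 and Slain2 each rose by 1.32 on a dim probe set and differed by 0.18 ± 0.09 and 0.19 ± 0.10 on the brightest, which did not pass. Nlrc5, the MHC class I transactivator, rose on 6 of 19 probe sets, by 0.25 to 1.03, and differed by 0.24 ± 0.08 on the brightest, which did not pass. Cspp1 rose on 4 of 14, by 0.35 to 0.85, and differed by −0.18 ± 0.07 on the brightest, which did not pass. Fga, a fibrinogen chain, fell by 0.29 ± 0.06 on the brightest and 0.77 on the other. The 19 probe sets of Srsy, a multicopy gene family of the Y chromosome, had median levels of 3.44 to 3.73 on the C57Bl6 arrays and 3.72 to 6.79 on the alb-SREBP-1a arrays. The highest was array 3 and the lowest array 4. On the brightest of them Srsy rose by 1.06 ± 0.25.

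The difference between the transgenic lines was fitted on the 8 alb-SREBP-1a∆P and 8 alb-SREBP-1a arrays, and 50.6% of all genes passed in it. It shares the alb-SREBP-1a arrays with the comparison above, and the values are given side by side. In this fit 29 of 31 proteasome subunits passed as lower in alb-SREBP-1a∆P and none as higher. Of 1016 olfactory receptors 694 passed as higher and none as lower. The median C57Bl6 log2 levels of these lists were 9.26 and 3.67. Whether the single genes below differ beyond such shared shifts was not tested. In alb-SREBP-1a∆P, Nr1d1 was 0.30 ± 0.10 above its alb-SREBP-1a level, and Nr1d2 differed by 0.03 ± 0.15. Nfil3 and Arntl were each 0.67 lower (SE 0.15 and 0.16), and Clpx 0.70 ± 0.12 lower, beyond their fall in alb-SREBP-1a. Saa3 (−0.91 ± 0.23), Irgm1 (−0.62 ± 0.08), H2-Ab1 (−0.68 ± 0.15) and Nr2f2 (−0.76 ± 0.10) were lower in alb-SREBP-1a∆P, against their rise over C57Bl6. Hmgcs1 (−0.52 ± 0.13), Idi1 (−0.43 ± 0.10) and Srebf1 (−0.73 ± 0.14, with the same limit on its probe sets) were lower too. C1qc (−0.05 ± 0.09), Eif4ebp2 (−0.02 ± 0.07), Tat (−0.03 ± 0.08), Slc27a5 (−0.02 ± 0.07) and Tecr (−0.01 ± 0.06) did not pass between the lines.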

How the data were processed

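Liver RNA was hybridised to Affymetrix Mouse Gene 1.0 ST arrays. The authors deposited log2 signals made with RMA in Affymetrix Expression Console, per the labels, which corrects background, normalises between arrays and sums the probes of a probe set. Such values compress differences of dim probe sets. Arrays were grouped by their titles. Of 35556 probe sets 21789 carried 1 gene symbol in the platform annotation, 1621 several and 12146 none, and each of 19938 genes was read by its brightest probe set.

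The 8 alb-SREBP-1a and 8 C57Bl6 arrays were compared with limma 3.58.1 (lmFit and eBayes, R 4.3.3), with Benjamini-Hochberg adjustment over all probe sets and a threshold of 0.05. The fit was tested on simulated data. The number of arrays limits the precision, and each array is 1 mouse. The gene lists and the comparison were chosen with earlier results of these data known. Named genes were the 12 probe sets per direction with the smallest p, the 8 with the largest fold, up to 6 called and 2 uncalled members of each list, the genes the study names and the SREBP system. From these, 148 were printed, and 7 were chosen outside the rule (Adgre1, Clec4f, Timd4, Vsig4, Orm2, Pank1 and Dleu2). Alternatives were all 24 arrays in 1 fit, a replicate block, other normalizations, a level filter, other variance models, other treatments of probe sets, the methods' t-test, and leaving out arrays. Sequences are from RefSeq tables of GRCm38.p6, in which 122 of the 155 named genes had a promoter.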

Additional observations from a re-analysis of the deposited data

Results flagged for a closer look

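For 11 of 310 tests of 8 arrays of 1 gene, 1 array stood apart from the other 7 by a gap above Dixon's 95% critical share of the range of its group, and chance gives about 1 in 20. In C57Bl6 the arrays were replicate 3 for H2-DMa (gap 0.673 of the range, log2 level 6.29 against at most 5.71) and Cxcl10 (0.614, 6.75 against at most 6.30), replicate 7 for Dnase1l3 (0.562, 7.68 against at least 8.25), replicate 8 for Cd52 (0.543, 6.23 against at most 6.10) and replicate 2 for Slain2 (0.528, 8.65 against at least 9.05). In alb-SREBP-1a they were replicate 2 for Foxa3 (0.616, 9.10 against at most 8.62), replicate 1 for Mir666 (0.602, 7.43 against at most 7.07), replicate 5 for Ivd (0.551, 9.74 against at least 9.95), replicate 4 for Usp2 (0.540, 6.09 against at least 6.59) and H2-DMa (0.533, 6.92 against at most 6.54), and replicate 6 for Acnat1 (0.528, 9.88 against at least 10.03).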

How the results depend on the processing

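The main counts were 2408 probe sets higher and 1416 lower, 63.0% of the calls being higher. Higher calls numbered 1385 with 1 probe set per gene, the brightest, and 1368 with the mean over the probe sets of a gene, where fewer features were tested. The methods' t-test at their unadjusted threshold and fold gave 979 higher and 338 lower (74.3% higher), and 2349 and 1458 after Benjamini-Hochberg adjustment. After quantile normalization 51.6% of the calls were higher, and the cause was not tested. The median difference of all probe sets was 0.011 as deposited, −0.023 after quantile normalization, 0.017 after median centring and −0.0041 after cyclic loess. Leaving out each array in turn gave 1950 to 2412 higher, 1066 to 1387 lower and 61.0 to 65.9% higher, and leaving out alb-SREBP-1a arrays 1 and 2 gave 2068 and 1140. Arrays share only a number: the deviations of same-numbered arrays correlated between −0.116 and 0.279 and 2 of 8 matched their own number best, and the fit with the replicate block gave 2037 higher and 1126 lower (64.4%). Named genes were refitted under up to 28 settings other than the fold threshold. Of 137 that passed the test, 120 passed under every setting that held them and 17 lost the call under at least 1. Bhlhe41, Mrps36 and Srsy, among the 120, had 27 settings because the level filter left them out. Of 18 that did not pass, 9 gained a call under at least 1. The sign turned for 2 genes that did not pass: Apoa4 was 0.00027 after quantile normalization and 0.0304 with array weights, and ran from −0.0779 (without C57Bl6 replicate 2) to 0.0365 (without C57Bl6 replicate 3) as each array was left out, and Cspp1 was 0.15 as the mean over its probe sets.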
